A study of Mus musculus with 21 samples.

Results

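The response of wild-type mouse macrophages to interleukin-4 (IL-4), over all genes that passed a filter on low counts, was measured in 3 libraries of wild-type C57BL/6 macrophages held with IL-4 for 36 h, set against 3 libraries of the same kind of cells held without added cytokine. The study holds 21 libraries in 7 groups of 3. The others come from wild-type cells with IL-33 and from cells of 2 mutant genotypes with IL-33 or no cytokine, and of these only the wild-type IL-33 libraries are described below, although all libraries enter the fit that estimates the spread. All cells were precursors from mouse bone marrow that had first been kept 5 days in M-CSF-conditioned medium, which turns them into macrophages, so both groups carry that treatment and an effect of IL-4 is an effect on cells already exposed to M-CSF. The IL-4 concentration, the sex and age of the mice and any pooling of animals were not given in the sources used here, and no label says whether the 3 libraries of a group stand for different mice. The spread that the p-values are set against is that between these libraries and may be technical. The filter kept 14473 of the 47069 genes in the deposited count table, and each of these is a member. Levels are given in CPM, counts per 1000000 of TMM-scaled library size, with the 3 libraries of a group in the order of their replicate numbers. A gene was called where its adjusted p was under 0.05 in edgeR's quasi-likelihood test, with Benjamini-Hochberg adjustment over all 14473 genes.

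IL-4 is a cytokine of type 2 immunity that drives macrophages into the state called alternative activation. It binds the receptor chain IL-4Rα, paired with the common γ chain or with IL-13Rα1, and the Janus kinases on these chains phosphorylate the transcription factor STAT6, which enters the nucleus and binds DNA. Alternatively activated mouse macrophages are known for making arginase, chitinase-like and resistin-like proteins, for fusing into multinucleate cells, and for roles in worm infection, allergy and tissue repair.

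The IL-4 libraries held 32.6, 42.2 and 46.4 M counts (M, 1000000), those without cytokine 36.0, 37.8 and 39.3 M. Mitochondrially encoded transcripts made up 0.136% to 0.218% of counts with IL-4 and 0.129% to 0.198% without cytokine. On the first principal component of the 9 wild-type libraries, which held 46.9% of the variance, the IL-4 libraries lay at 60.3 to 63.6, the IL-33 libraries at -23.6 to -20.5 and the libraries without cytokine at -43.8 to -36.0. Markers of macrophages were well expressed in both groups, with Csf1r, the M-CSF receptor, at 2108, 2234 and 2153 CPM with IL-4 against 3586, 3311 and 3643 CPM without cytokine. Of 10 macrophage markers 3 rose and 6 fell, and their summed level was 14960 to 16520 CPM with IL-4 against 28430 to 31340 CPM without cytokine. Most of that sum is Lyz2. Dendritic cell markers summed to 864 to 1271 CPM with IL-4 and 53.5 to 101 CPM without cytokine. Itgax made up nearly all of this. Of 10 dendritic cell markers Itgax, Batf3 (34.5 CPM with IL-4, 4.09 CPM without cytokine) and Zbtb46 (2.06 CPM with IL-4, 0.152 CPM without cytokine) rose and Siglech fell (1.68 CPM with IL-4, 3.23 CPM without cytokine). The other 6, among them Flt3, Xcr1 and Clec9a, had at most 1.405 CPM on average in either group and were not called. B cell markers summed to 46.2 to 53.0 CPM with IL-4 and 164 to 215 CPM without cytokine, nearly all of it Ighm. Ighm and the B cell receptor chain Cd79b (1.41 CPM with IL-4, 4.0003 CPM without cytokine) fell, and the other 4 of 6 tested B cell markers, each under 0.5 CPM in both groups, were not called. Neutrophil markers summed to 206 to 217 CPM with IL-4 and 122 to 135 CPM without cytokine, mostly Csf3r, which rose with Cxcr2 and Mmp8. Of the 11 tested neutrophil markers 6 fell, among them S100a8 (3.31 CPM with IL-4, 5.57 CPM without cytokine) and the granule genes Ltf, Ngp and Elane. Cd3e, Cd3d, Trac, Epx, Hbb-bs and Ly6g had too few counts to be tested. Of 7 tested markers of T, NK and innate lymphoid cells 1 rose and 3 fell. Il7r rose (320.5 CPM with IL-4, 165 CPM without cytokine) and Cd4 fell (2.65 CPM with IL-4, 22.5 CPM without cytokine). Of 6 tested mast cell and basophil markers only Kit was called, and it fell (1.70 CPM with IL-4, 8.57 CPM without cytokine). Of 7 tested stromal and endothelial markers Pecam1 rose 6.75-fold, Kdr fell 2.59-fold and 5 were not called. In bulk RNA, fewer cells of a type and less RNA per cell cannot be told apart.

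IL-4 changed 6890 genes, 47.6% of those tested, with 3627 higher (25.1%) and 3263 lower (22.5%). Most changes were small: the median fold among called genes was 1.42. The large ones were mostly rises. By the fitted values, 838 genes (5.79%) rose and 762 (5.26%) fell at least 2-fold, 371 (2.56%) rose and 238 (1.64%) fell at least 4-fold, and 121 (0.836%) rose and 23 (0.159%) fell at least 16-fold. Fitted folds of genes with few counts in a group depend on the prior count that edgeR adds. For those genes the ratio of summed counts is given below with a 95% interval for counting error only. The libraries of the 2 groups did not overlap in 8126 genes (56.1%). Of 12257 protein-coding genes, 27.9% rose and 25% fell, and of 899 long non-coding RNA genes 6.79% rose and 14.1% fell.

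**Figure D1:**
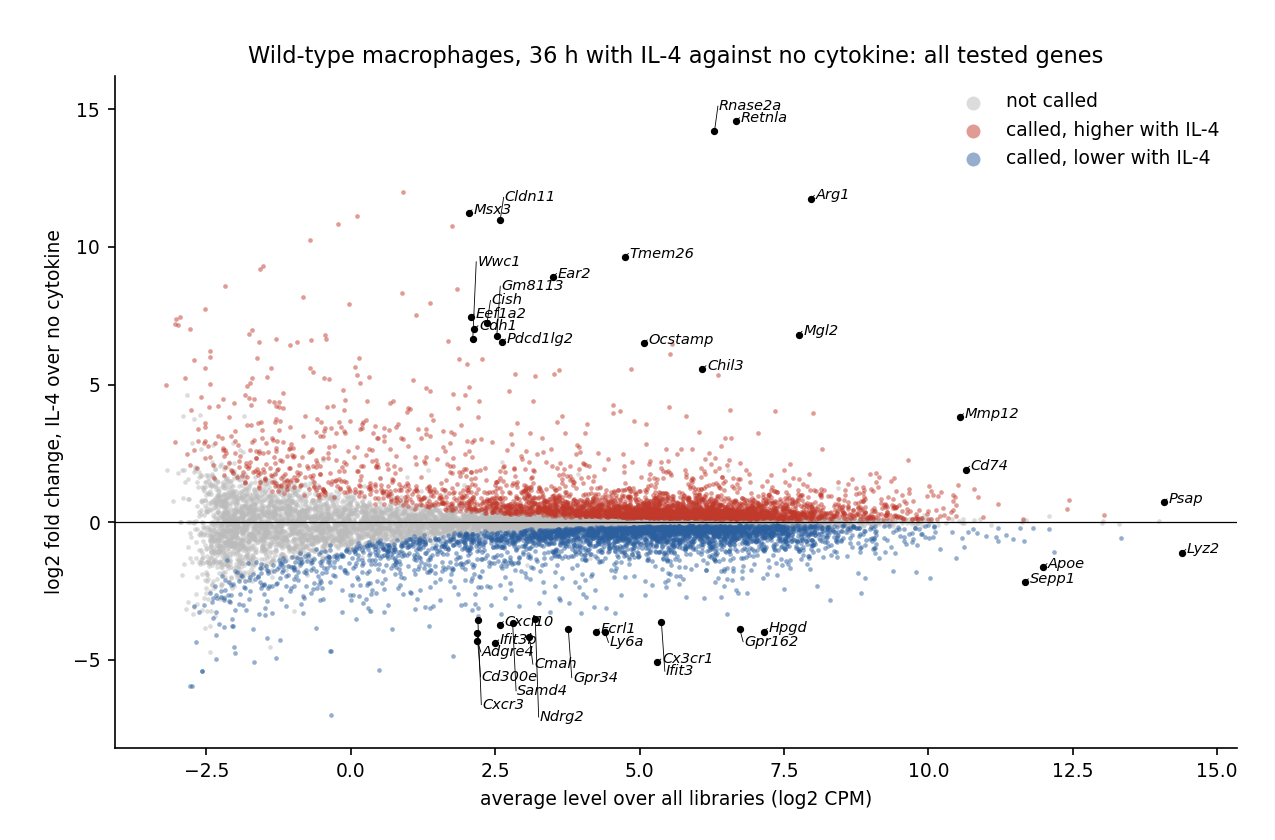
Fitted log2 fold change, IL-4 over no cytokine (y axis), against the average level over all 21 libraries in log2 CPM (x axis), 1 point per tested gene. Red points are the 3627 genes called higher with IL-4, blue points the 3263 called lower and grey points the rest. Retnla lies at 14.58 and Cx3cr1 at -5.09.

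The largest called rises were ranked among protein-coding genes with an average log2 CPM of at least 2 over all 21 libraries. Retnla and Rnase2a reached that level only through the IL-4 libraries, so the ranking is a description. The 15 largest rises were Retnla, Rnase2a, Arg1, Msx3, Cldn11, Tmem26, Ear2, Eef1a2, Cish, Cdh1, Mgl2, Gm8113, Wwc1, Pdcd1lg2 and Ocstamp. Promoter windows were matched for 11 of them, and the motif bound by STAT6 was looked for there. STAT factors bind an inverted repeat of TTC and GAA, and STAT6 is known for accepting a spacer of 4 bases between them where other STAT factors use 3. The 4 windows below belong to the genes in this set that held a match to either spacing. They show 250 bases before and 30 bases after the start that RefSeq annotates on GRCm38.p6, 5′ to 3′ on the plus strand, which is the coding strand of all 4 genes. Capitals mark matches to TTCNNNNGAA in Retnla (chr16:48842359-48842638), Tmem26 (chr10:68723496-68723775) and Pdcd1lg2 (chr19:29410669-29410948) and to TTCNNNGAA in Cish (chr9:107296409-107296688).
Retnla: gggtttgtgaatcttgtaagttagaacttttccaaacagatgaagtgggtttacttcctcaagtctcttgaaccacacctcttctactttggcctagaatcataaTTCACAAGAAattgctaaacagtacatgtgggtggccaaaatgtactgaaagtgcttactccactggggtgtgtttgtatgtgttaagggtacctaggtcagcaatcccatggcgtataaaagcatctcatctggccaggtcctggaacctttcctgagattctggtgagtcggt
Tmem26: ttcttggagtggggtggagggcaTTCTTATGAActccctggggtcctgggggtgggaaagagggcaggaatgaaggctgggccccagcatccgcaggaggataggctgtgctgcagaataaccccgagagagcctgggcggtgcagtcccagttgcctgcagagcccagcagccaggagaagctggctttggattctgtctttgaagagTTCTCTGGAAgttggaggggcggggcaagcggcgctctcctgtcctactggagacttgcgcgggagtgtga
Pdcd1lg2: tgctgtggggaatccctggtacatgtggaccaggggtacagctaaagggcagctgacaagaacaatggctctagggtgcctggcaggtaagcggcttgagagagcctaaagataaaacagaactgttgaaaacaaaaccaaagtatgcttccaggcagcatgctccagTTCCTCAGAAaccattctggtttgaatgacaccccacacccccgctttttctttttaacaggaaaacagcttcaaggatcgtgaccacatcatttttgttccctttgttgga
Cish: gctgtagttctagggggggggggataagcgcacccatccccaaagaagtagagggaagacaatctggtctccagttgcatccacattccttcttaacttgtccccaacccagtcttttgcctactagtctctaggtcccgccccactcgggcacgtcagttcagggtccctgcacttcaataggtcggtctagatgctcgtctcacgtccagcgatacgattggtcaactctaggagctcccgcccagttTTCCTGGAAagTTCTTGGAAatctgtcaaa
The match in Retnla, TTCACAAGAA, begins 145 bases before the start. Tmem26 holds TTCTTATGAA at 227 and TTCTCTGGAA at 41 bases before the start, and Pdcd1lg2 holds TTCCTCAGAA at 82 bases before it. In Cish, TTCCTGGAA lies at the annotated start and TTCTTGGAA 11 bases after it. Both motifs read the same on either strand. Over windows of 300 bases, TTCNNNNGAA was in 12.6% (11 of 87) of genes called at least 16-fold up, 6.57% (38 of 578) of those called at least 2-fold up, 5.58% of those called at least 2-fold down, 5.51% of all 10245 tested genes with a window and 6.95% of all 32851 RefSeq windows. For TTCNNNGAA the shares were 11.5%, 5.19%, 7.81%, 6.91% and 8.3% in the same order. A match is a description of these letters and not evidence of binding.

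Retnla (ENSMUSG00000061100, chromosome 16, 48842551 to 48844461 of GRCm38) encodes the secreted resistin-like molecule α, a marker of alternative activation. It stood at 739, 658 and 742 CPM with IL-4, against 0, 0.0259 and 0.0501 CPM without cytokine, or 83995 counts against 3, a ratio of 27293 (95% counting interval 9339 to 132350). Rnase2a (ENSMUSG00000047222), an eosinophil-type ribonuclease gene, had nearly the same pattern, with 579, 504 and 562 CPM with IL-4 against 0, 0.0519 and 0.02505 CPM without cytokine. For both genes all IL-4 libraries lay within a narrow band and the others at or near 0. The eosinophil genes Epx, Prg3 and Il5ra, which would mark that cell type, were too low to be tested. Of the 3 eosinophil markers that were tested, Ccr3 fell (2.44 CPM with IL-4, 3.53 CPM without cytokine), Prg2 was not called (1.01 CPM with IL-4, 0.959 CPM without cytokine) and Siglecf rose. Siglecf, a lectin shared by eosinophils and some macrophages, stood at 27.2, 37.5 and 29.7 CPM with IL-4 and 5.36, 9.81 and 7.71 CPM without cytokine.

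Genes of secreted products of alternatively activated macrophages rose as a group. Of 14 tested members 11 rose and 2 fell, against 25.1% and 22.5% of all genes, and the median log2 fold change was 4.43, against 0.0048 over all genes. Each list count against no cytokine below is to be read beside these same shares, 25.1% higher and 22.5% lower. The chitinase-like genes Chil3 and Chil4 both rose. Chil4 (chromosome 3, 106201490 to 106219507) had 1522 counts over the IL-4 libraries, 12.5, 11.8 and 14.2 CPM, and none without cytokine, so it was at least 164-fold higher against a floor of 3 counts per library. Chil3 stood at 383, 375 and 436 CPM with IL-4, against 7.87, 9.495 and 7.84 CPM without cytokine. Fn1, which encodes the matrix protein fibronectin, rose 40.3-fold but varied in both groups, with 215, 414 and 334 CPM with IL-4 and 3.85, 11.7 and 8.19 CPM without cytokine. Mmp12, the macrophage elastase gene, stood at 4334, 5655 and 4009.7 CPM with IL-4 and 228, 455 and 309 CPM without cytokine (3.82 ± 0.22 log2 units). Replicate 2 was the highest library of its group for Fn1 and for Mmp12, and the groups did not overlap, as in 56.1% of all tested genes. The growth factor gene Igf1 rose 2.79-fold (1171, 1110.4 and 1101 CPM with IL-4, 409.5, 398 and 404 CPM without cytokine) and the IL-1 receptor antagonist gene Il1rn 2.99-fold. Against this direction, F13a1, the transglutaminase subunit of clotting factor XIII, fell to 25.4 ± 7.27 CPM with IL-4, against 47.4 ± 9.07 CPM without cytokine (SD, n = 3 each; -0.90 ± 0.25, adjusted p = 0.00568). Retnlg, a resistin-like gene, had 5 counts with IL-4 and 36 without cytokine, and its fall was lost with limma-voom, without IL-4 replicate 3 or without replicate 2 of the cells without cytokine. Tgfb1, which encodes transforming growth factor β, did not pass (-0.09 ± 0.05, adjusted p = 0.125).

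**Figure D2:**
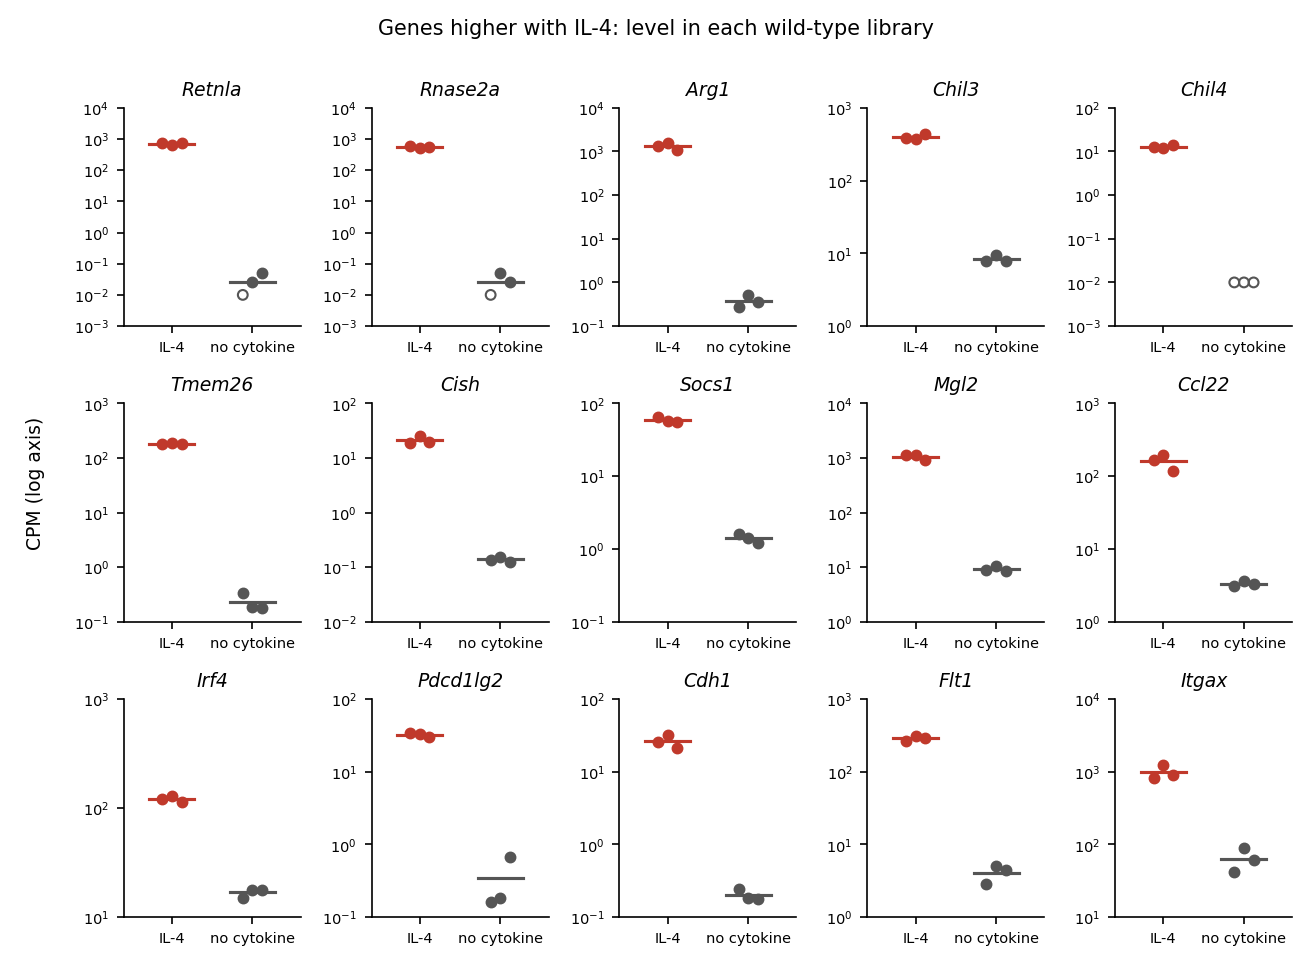
Level of 15 genes in each wild-type library, in CPM on a log axis that differs between panels; filled points are libraries, lines are group means, and open points are libraries with no count, drawn at a fixed height. In every panel the 3 IL-4 libraries lie above the 3 without cytokine. Libraries of these 2 groups did not overlap in 56.1% of all tested genes. Tmem26 spans 182 to 184 CPM with IL-4 and 0.175 to 0.328 CPM without cytokine.

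The other large rises were in genes of varied kinds. Tmem26 (ENSMUSG00000060044), a membrane protein gene, varied least between the IL-4 libraries, with 183, 184 and 182 CPM with IL-4 against 0.328, 0.182 and 0.175 CPM without cytokine (9.64 ± 0.14 log2 units, adjusted p = 1.5e-22). Msx3, a homeobox gene, had 3321 counts over the IL-4 libraries and 1 over the libraries without cytokine, a ratio of 3237 (95% counting interval 581 to 127907). The tight junction gene Cldn11 had 4860 counts over the IL-4 libraries and 2 over the libraries without cytokine, a ratio of 2369 (95% counting interval 655 to 19566). Eef1a2, an isoform of translation elongation factor 1α, had a ratio of 178 (95% counting interval 111 to 307). Wwc1, a scaffold of the Hippo pathway also called KIBRA, rose 99.9-fold to 25.8, 27.2 and 28.4 CPM. The counts of Ear2 and Gm8113 are uncertain, because 26.0% and 27.2% of their exon sequence is shared with other genes.

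The receptor pathway itself moved in both directions. Of 16 tested members of receptor signalling and feedback, 6 rose and 6 fell (37.5% each, against 25.1% and 22.5% of all genes). The median log2 fold change was -0.06. The receptor chain gene Il4ra fell to 55.4, 61.5 and 51.03 CPM with IL-4, against 81.7, 79.6 and 78.3 CPM without cytokine (-0.51 ± 0.11, adjusted p = 4.9e-04). Il13ra1, whose product pairs with IL-4Rα outside lymphocytes, fell 1.98-fold, and Stat6 1.17-fold. Il2rg, the common γ chain gene, did not pass (adjusted p = 0.951), and 27.5% of its exon sequence is shared with other genes. Of the kinases, Jak2 rose 1.85-fold and Jak3, the partner of the common γ chain, fell to 18.7, 22.4 and 20.1 CPM, against 29.5, 27.3 and 30.5 CPM without cytokine. Irs2, the adaptor that links the receptor to phosphatidylinositol 3-kinase, rose 2.38-fold. The phosphatase gene Ptpn6 (SHP-1) fell to 176, 177 and 183 CPM with IL-4, against 343, 336 and 342 CPM without cytokine (-0.93 ± 0.04).

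The feedback inhibitors of the SOCS family, which bind activated receptors or kinases and damp their signal, separated by member. Socs1 (ENSMUSG00000038037) stood at 64.7, 57.9 and 56.3 CPM with IL-4, against 1.61, 1.43 and 1.202 CPM without cytokine (42.2-fold). Socs2 stood at 17.5, 20.1 and 17.9 CPM with IL-4 and 0.437, 0.623 and 0.276 CPM without cytokine (41.4-fold). Cish, whose promoter window is shown above, had 19.03, 25.3 and 19.998 CPM with IL-4 and 0.137, 0.156 and 0.125 CPM without cytokine, a count ratio of 155 (95% counting interval 95.4 to 272). The groups of these 3 genes lay far apart. Socs3 was 1.93, 1.69 and 1.33 CPM with IL-4, 67.5, 97.7 and 114 CPM with IL-33 and 4.15, 3.42 and 3.33 CPM without cytokine. With IL-4 it was not called against no cytokine (adjusted p = 0.0532), although those libraries did not overlap, as in 56.1% of all tested genes.

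Genes of arginine uptake and of its conversion to ornithine and polyamines mostly rose. Of 18 members 11 rose and 3 fell, with a median log2 fold change of 0.49. Arg1 (chromosome 10, 24915221 to 24927484), which cleaves arginine to ornithine and urea, stood at 1357, 1548 and 1092 CPM with IL-4, against 0.273, 0.519 and 0.351 CPM without cytokine. Slc7a2 (chromosome 8, 40862396 to 40922308), a cationic amino acid transporter that brings arginine into the cell, had 217, 282 and 225 CPM with IL-4 and 2.43, 2.72 and 2.91 CPM without cytokine, an 89.6-fold rise (6.48 ± 0.17, adjusted p = 6.6e-18). The second transporter gene, Slc7a1, rose 2.72-fold. Downstream, the polyamine synthesis genes rose less, with Odc1 at 1.47-fold, Srm at 1.69-fold and Sms at 1.601-fold. Smox, which oxidises spermine back to spermidine, fell to 42.4, 49.5 and 43.4 CPM with IL-4, against 83.5, 81.5 and 78.7 CPM without cytokine. Arg2, the mitochondrial arginase, and Nos2, which uses arginine to make nitric oxide, had under 0.5 CPM in every library of both groups and were not called.

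The C-type lectin receptors, which bind sugars on microbes and on the body's own glycoproteins, split. Of 15 tested members 7 rose and 6 fell, with a median log2 fold change of 0.11. Mgl2 (ENSMUSG00000040950), a galactose-type lectin, had 1124, 1115 and 922 CPM with IL-4, against 8.91, 10.6 and 8.52 CPM without cytokine (113-fold). The mannose receptor gene Mrc1 rose 2.102-fold, Clec10a 2.12-fold and Clec7a, the β-glucan receptor dectin-1, 2.11-fold. The members that fell include 3 neighbours on chromosome 6 that recognise fungal and mycobacterial glycolipids or mannans. Clec4n (dectin-2) had 1.201, 1.355 and 0.7103 CPM with IL-4 and 4.65, 4.49 and 4.86 CPM without cytokine (-2.12 ± 0.23). Clec4e (mincle) changed by -1.96 ± 0.17 and Clec4d by -1.47 ± 0.06. Another gene of this family, Clec4a2, rose 3.02-fold.

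Of 32 transcription factor genes known in macrophage polarisation, 19 rose and 8 fell, with a median log2 fold change of 0.46. Irf4 (chromosome 13, 30749226 to 30766976), which acts downstream of STAT6 in alternative activation, stood at 120.4, 129 and 115 CPM with IL-4, against 14.9, 17.9 and 17.7 CPM without cytokine (7.21-fold). Bhlhe40 rose 8.28-fold, Batf3 8.43-fold, Egr2 5.65-fold, Myc 4.29-fold and Klf4 4.27-fold. Pparg, a nuclear receptor for fatty acids, stood at 143, 123 and 149.8 CPM with IL-4 and 58.5, 64.1 and 59.5 CPM without cytokine (2.28-fold). Maf (chromosome 8, 115682942 to 115707794) fell 5.99-fold, to 96.7, 105 and 84.1 CPM with IL-4, against 609, 554 and 547 CPM without cytokine. Bhlhe41 (-0.88 ± 0.09) and Irf8 (-0.71 ± 0.05) also fell, and Spi1, which encodes the macrophage factor PU.1, did not pass (0.06 ± 0.04, adjusted p = 0.198).

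Chemokines, which draw other leukocytes, rose in 10 of 20 members and fell in 6, with a median log2 fold change of 0.88. The ligands of CCR4 and CCR3, receptors of type 2 T cells and eosinophils, rose. Ccl22 had 167, 194 and 119 CPM with IL-4, against 3.06, 3.63 and 3.33 CPM without cytokine (47.8-fold), and IL-4 replicate 3 was the lowest of its group. Ccl24 rose 13.05-fold to 10.1, 11.4 and 10.99 CPM. Ccl17 was low at 2.09, 3.92 and 2.53 CPM, with a count ratio of 333 (95% counting interval 59.4 to 13206). The monocyte chemoattractants Ccl7 and Ccl2 rose 12.8-fold and 4.88-fold. In the other direction, Cxcl10, the interferon-induced ligand of CXCR3, had 0.411, 0.242 and 0.977 CPM with IL-4 and 7.49, 7.08 and 7.91 CPM without cytokine. The neutrophil chemoattractants Cxcl2 (-1.27 ± 0.24) and Cxcl1 fell as well, the second with 4 counts against 63, a ratio of 0.0619 (95% counting interval 0.0164 to 0.166).

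Receptors for chemoattractants and purines mostly fell: 13 of 23 members, with 3 rises and a median log2 fold change of -0.53. Cx3cr1, the receptor for the membrane-bound chemokine fractalkine, had 2.12, 1.28 and 1.221 CPM with IL-4, against 50.04, 50.02 and 53.1 CPM without cytokine. The lysophosphatidylserine receptor gene Gpr34 stood at 0.379, 2.01 and 1.04 CPM with IL-4 and 14.02, 19.7 and 18.5 CPM without cytokine, and the ADP receptor genes P2ry13 and P2ry12 changed by -2.74 ± 0.22 and -1.51 ± 0.18. Ccr2, which brings monocytes out of the marrow, fell to 96.1, 91.4 and 100.5 CPM with IL-4, against 209, 237 and 233 CPM without cytokine. C5ar1, the receptor for the complement fragment C5a, fell to 156, 138 and 143 CPM, against 559, 499.6 and 524 CPM without cytokine (-1.86 ± 0.05, adjusted p = 2.3e-17). The monocyte markers Ly6c2 (-1.44 ± 0.23) and Plac8 (-1.86 ± 0.22) fell beside Ccr2, while F10, the gene of clotting factor X and also on that marker list, rose 16.3-fold. The list, which also holds Chil3, summed to 994 to 1031 CPM with IL-4 and 258 to 304 CPM without cytokine. The part of the monocyte share of the cultures in these changes was not tested. The 3 rises were Ccr1 (3.01-fold), the adenosine receptor gene Adora2b (3.66-fold) and P2ry1 (2.08-fold), which a gene on the opposite strand overlaps.

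Genes best known from resting microglia, the macrophages of the brain, fell in 11 of 15 tested members and rose in none, with a median log2 fold change of -0.73. Besides Cx3cr1, Gpr34 and the ADP receptor genes, these include Mertk (-1.15 ± 0.09), the TGF-β receptor gene Tgfbr1 (95.8 ± 4.28 CPM with IL-4 and 192 ± 5.29 CPM without cytokine; SD, n = 3 each), Mef2c (-0.73 ± 0.07) and Csf1r (-0.70 ± 0.06). Tmem119 had under 0.6 CPM in every library of both groups and was not called. Trem2, a lipid-sensing receptor, was 984 ± 48.8 CPM with IL-4 and 1007 ± 10.99 CPM without cytokine (SD, n = 3 each) and was not called (adjusted p = 0.562).

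Receptors and bridging molecules for apoptotic cells and lipoproteins fell in 13 of 21 tested members and rose in 4, with a median log2 fold change of -0.36. Stab1, a scavenger receptor that binds phosphatidylserine, had 259, 309.9 and 276 CPM with IL-4, against 1313, 962 and 1184 CPM without cytokine. Gas6, the ligand that bridges dying cells to the TAM receptors, had 386, 349 and 363 CPM with IL-4 and 1413, 1193 and 1247 CPM without cytokine. Its receptors Axl (-1.27 ± 0.16) and Mertk fell with it, and Cd163, the haemoglobin scavenger receptor, changed by -0.92 ± 0.08. Cd36, which takes up oxidised lipoprotein and fatty acids, went the other way with 1914, 2337 and 1851 CPM with IL-4 and 377, 525 and 387 CPM without cytokine (2.24 ± 0.15). None of these groups overlapped, which held for 56.1% of all tested genes.

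Interferon-stimulated genes were lower with IL-4 almost throughout. Macrophages in culture hold a low constant level of this antiviral program, which type I interferon maintains through factors that bind a DNA element called the ISRE. Of 40 members 36 fell and 1 rose, with a median log2 fold change of -1.27. Ifit2 had 27.8, 14.97 and 22.9 CPM with IL-4, against 180.2, 126 and 126 CPM without cytokine (-2.72 ± 0.31). Irf7, the factor that amplifies interferon production, had 42.2, 22.8 and 34.2 CPM with IL-4 and 240.01, 146 and 159.6 CPM without cytokine (-2.46 ± 0.36). In both genes replicate 1 was the highest library of each group, and replicate 2 was the lowest with IL-4. The groups did not overlap, as in 56.1% of all tested genes. The antiviral enzymes Oas2 (-2.24 ± 0.18), Rsad2 (-2.07 ± 0.25) and the ubiquitin-like modifier gene Isg15 (-1.52 ± 0.25) fell too. Stat2 fell 1.67-fold to 102, 81.9 and 91.5 CPM, against 182, 135 and 143 CPM without cytokine. Gbp2, a guanylate-binding protein gene, was the member that rose (0.84 ± 0.12). Gbp3 (0.13 ± 0.11) and Usp18, the protease that removes Isg15 from proteins (0.42 ± 0.29), did not pass, nor did Ifi204 (-0.39 ± 0.17, adjusted p = 0.0586).

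The ISRE is a repeat of GAAA, searched here as GAAANNGAAA on both strands. Shown are windows of 2 genes that fell, the list member Ifit3 (chr19:34583279-34583558, plus strand) and the chemokine gene Cxcl10 (chr5:92348860-92349139, minus strand), which interferon induces but which is not on the list, from RefSeq on GRCm38.p6, 5′ to 3′ along the coding strand, with matches in capitals.
Ifit3: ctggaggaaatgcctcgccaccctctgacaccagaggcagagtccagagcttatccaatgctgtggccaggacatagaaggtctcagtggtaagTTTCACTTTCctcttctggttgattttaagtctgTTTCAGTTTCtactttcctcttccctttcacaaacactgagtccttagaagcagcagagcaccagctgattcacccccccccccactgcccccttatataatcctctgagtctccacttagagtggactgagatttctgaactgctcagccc
Cxcl10: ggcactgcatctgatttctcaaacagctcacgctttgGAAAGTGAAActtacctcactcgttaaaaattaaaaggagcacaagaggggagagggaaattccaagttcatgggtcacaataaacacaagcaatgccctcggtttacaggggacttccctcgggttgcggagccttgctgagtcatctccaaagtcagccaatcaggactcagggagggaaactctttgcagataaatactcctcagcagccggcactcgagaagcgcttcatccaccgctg
In Ifit3 the element lies on the other strand, as TTTCACTTTC at 156 and TTTCAGTTTC at 122 bases before the start, and in Cxcl10 it reads GAAAGTGAAA at 213 bases before the start. Windows were matched for 28 of the 40 interferon-stimulated genes, and 17 of the 28 (60.7%) held the element. It was in 3.39% of all tested genes with a window, in 8.18% (44 of 538) of genes called at least 2-fold down, in 2.94% of those called at least 2-fold up and in 3.44% of all RefSeq windows. The set called at least 2-fold down includes members of the list, Ifit3 among them, so these shares are not independent. Members both with and without a match fell, such as Ifit3 (-3.63 ± 0.36) and Irf7. More than 50% of the exon sequence of Ifit3 is shared with its neighbour Ifit3b, so the counts of these 2 genes are uncertain.

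**Figure D3:**
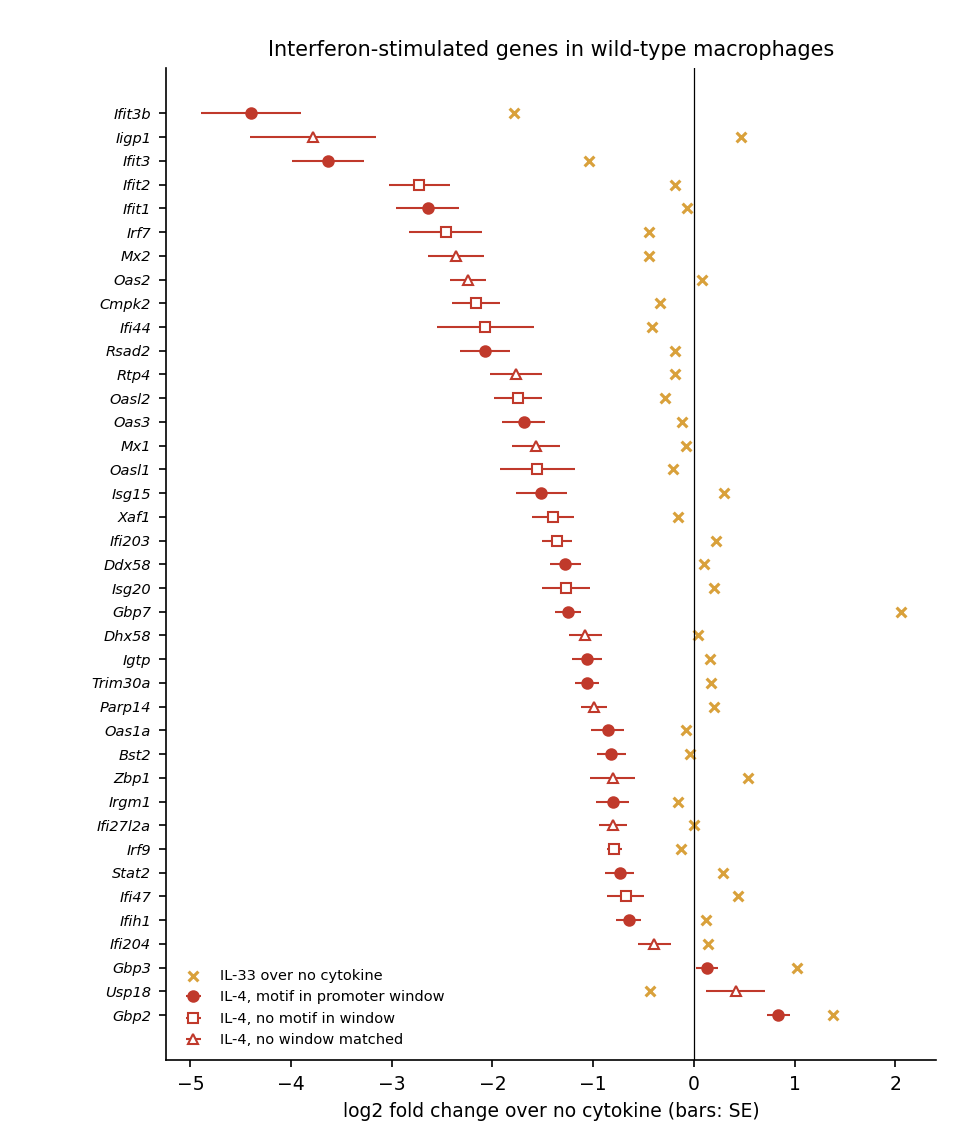
Log2 fold change over no cytokine (x axis) of 39 of the 40 interferon-stimulated genes, 1 row each, in wild-type macrophages: red symbols with SE bars for IL-4 and crosses for IL-33. Filled circles are genes whose promoter window holds GAAANNGAAA, open squares those without a match and triangles those with no matched window; 36 of the whole list of 40 were called lower with IL-4, and the 17 with a match lie along the whole range.

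Genes that sense nucleic acids and interferon moved less, with 8 of 15 tested members lower, 2 higher and a median log2 fold change of -0.13. The endosomal receptor genes Tlr9 (-1.62 ± 0.15) and Tlr7 (-1.03 ± 0.10) fell most. The interferon receptor chain Ifnar2 fell to 78.8, 74.4 and 73.4 CPM with IL-4, against 113, 109 and 116 CPM without cytokine. The other chain, Ifnar1, was called higher at 0.16 ± 0.06 (adjusted p = 0.0398), a call lost in 11 of 16 alternative settings. Ifnb1 was too low to be tested.

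Genes of bacterial sensing mostly fell. Of 26 genes of Toll-like receptors and inflammasomes, 17 fell and 4 rose, with a median log2 fold change of -0.61. Tlr2, the lipopeptide receptor, had 29.5, 30.5 and 26.9 CPM with IL-4, against 107, 119.6 and 125 CPM without cytokine. Cd14, the co-receptor for lipopolysaccharide, had 250.03, 222 and 241 CPM with IL-4 and 826, 803 and 819.6 CPM without cytokine (-1.78 ± 0.05). Nlrp3 (-1.72 ± 0.07) fell as well, and the flagellin receptor gene Tlr5 had 4 counts against 108, a ratio of 0.0361 (95% counting interval 0.00966 to 0.0951). Tlr4, which signals for lipopolysaccharide together with CD14, rose by 0.52 ± 0.05, and so did the inflammasome adaptor gene Pycard (0.75 ± 0.05). Il1b was low in both groups, at 0.348, 0.677 and 0.178 CPM with IL-4 and 0.875, 1.17 and 0.952 CPM without cytokine, and was not called (adjusted p = 0.1702).

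Fc receptors and complement fell in 11 of 17 tested members and rose in 4, with a median log2 fold change of -0.53. The activating IgG receptor genes Fcgr1 and Fcgr4 fell and the inhibitory one, Fcgr2b, rose. Fcgr1, the high-affinity activating receptor, had 57.1, 38.3 and 54.7 CPM with IL-4, against 266, 234 and 245 CPM without cytokine (-2.31 ± 0.13). Fcgr4 fell 2.11-fold. Fcgr2b had 415, 449 and 414 CPM with IL-4 and 126, 128 and 127 CPM without cytokine (1.75 ± 0.08). Fcgr3 was called higher at 0.10 ± 0.04 (adjusted p = 0.0488), a call lost in 14 of 16 alternative settings. Among complement genes C1qa fell 2.16-fold, and C3, the central component, rose 2.97-fold to 151, 214 and 130.4 CPM.

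Genes of antigen presentation on MHC class II mostly rose. Of 12 members 10 rose and 1 fell, with a median log2 fold change of 1.21. Ciita, the master regulator of these genes, had 137, 145 and 145 CPM with IL-4, against 48.5, 53.7 and 57.4 CPM without cytokine (1.42 ± 0.11). H2-Aa, a class II chain gene, had 508, 531 and 534 CPM with IL-4 and 162, 216 and 193 CPM without cytokine. The other chains H2-Ab1 (2.61-fold) and H2-Eb1 (2.24-fold) rose beside it, as did the invariant chain gene Cd74 (3.76-fold). The member that fell was H2-Ob (-0.73 ± 0.22), a chain of the class II inhibitor H2-O that B cells make. It stands beside the B cell marker Ighm, which fell to 44.5, 50.8 and 47.6 CPM with IL-4, against 159, 211 and 207 CPM without cytokine. The B cell marker Cd79b fell too. The dendritic cell markers Itgax, Zbtb46 and Batf3 rose with the class II genes, while Siglech fell and the other 6 of that list were not called. The part of either cell type in these values was not tested. Genes of MHC class I moved little, with 3 members higher (16.7%) and 7 lower (38.9%) of 18, against 25.1% and 22.5% of all genes. Their median log2 fold change was -0.07. B2m and H2-K1 did not pass, and the peptide transporter gene Tap1 fell (-0.49 ± 0.07).

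Ligands for T cells split, with 5 of 15 members higher, 7 lower and a median log2 fold change of -0.06. Pdcd1lg2, which encodes the PD-1 ligand PD-L2, had 33.8, 33.3 and 30.2 CPM with IL-4, against 0.164, 0.182 and 0.676 CPM without cytokine (92.8-fold). The second PD-1 ligand gene, Cd274, rose 1.85-fold and Tnfsf4, the OX40 ligand, 9.56-fold. Cd86 fell 2.45-fold and Icosl, the ligand of the T cell protein ICOS, fell to 3.92, 3.73 and 2.91 CPM with IL-4, against 23.4, 19.5 and 21.8 CPM without cytokine (-2.63 ± 0.13). Cd80 did not pass (0.29 ± 0.14, adjusted p = 0.101).

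Cell fusion genes rose, and with them some genes of osteoclasts, the fused macrophages that resorb bone. Of 18 tested members 11 rose and 4 fell, with a median log2 fold change of 1.97. Cdh1, which encodes the adhesion protein E-cadherin, had 25.9, 31.98 and 21.1 CPM with IL-4, against 0.246, 0.182 and 0.175 CPM without cytokine, a count ratio of 131 (95% counting interval 87.1 to 207). The fusion receptor genes rose unequally: Ocstamp had 214, 254 and 180.1 CPM with IL-4 and 2.104, 3.61 and 1.45 CPM without cytokine (90.4-fold), and Dcstamp rose 6.34-fold. Effector genes of bone resorption rose too, with Car2 (carbonic anhydrase 2) at 39.8-fold, Atp6v0d2 (a proton pump subunit) at 6.25-fold, Ctsk (cathepsin K) at 4.37-fold and Acp5 (the phosphatase TRAP) at 4.098-fold. The regulators of osteoclast formation did not follow. Tnfrsf11a, the receptor RANK, changed by -0.58 ± 0.08 and its target factor Nfatc1 by -0.78 ± 0.08.

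Of 20 adhesion genes, integrins and cadherins, 10 rose and 8 fell, with a median log2 fold change of 0.28. Itgax, the integrin chain CD11c, had 823, 1228 and 913 CPM with IL-4, against 41.3, 89.2 and 60.2 CPM without cytokine, and its partner Itgb2 rose 2.49-fold. Itgb3 rose 4.94-fold. Integrin chains that fell were the laminin receptor chain Itga6, with 42.01, 46.1 and 41.97 CPM with IL-4 and 258, 224 and 222 CPM without cytokine, Itga9 (-3.11 ± 0.35) and Itgal (-2.02 ± 0.15). Proteases and other matrix genes rose in 12 of 24 members and fell in 5, with a median log2 fold change of 0.62. The falls, 20.8% of members, were near the 22.5% of all genes. The collagenase gene Mmp13 rose 14.5-fold, the inhibitor Timp1 11.6-fold and the urokinase receptor gene Plaur 3.93-fold. Thbs1 (thrombospondin 1, -1.86 ± 0.22), Tgfbi (-0.97 ± 0.10) and Spp1 (osteopontin, -0.70 ± 0.09) fell.

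Cytokine and growth factor receptors rose in 12 of 27 tested members (44.4%) and fell in 9 (33.3%), against 25.1% and 22.5% of all genes. The median log2 fold change was -0.03. The largest rise was Flt1, a receptor for vascular endothelial growth factor, with 263, 305 and 292 CPM with IL-4, against 2.87, 4.98 and 4.48 CPM without cytokine (69.4-fold). The IL-1 receptor gene Il1r1 rose 12.4-fold and Il1rl1, the gene of ST2, the receptor chain for IL-33, had 58.9, 67.8 and 50.7 CPM with IL-4 and 14.6, 17.3 and 15.1 CPM without cytokine. Csf2rb, the signalling chain for GM-CSF, IL-3 and IL-5, rose 3.42-fold. Tgfbr2, a TGF-β receptor chain, fell to 100.1, 93.1 and 102 CPM, against 256, 243 and 255 CPM without cytokine, and likewise the IL-10 receptor chain Il10ra (-1.05 ± 0.06) and the IL-17 receptor chain Il17ra (-1.99 ± 0.15).

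Lipid mediator genes moved in both directions. Of 20 tested eicosanoid genes 9 rose and 7 fell, with a median log2 fold change of 0.50. Hpgd (chromosome 8, 56294585 to 56321043), which inactivates prostaglandins, had 16.8, 14.4 and 19.7 CPM with IL-4, against 269.7, 245 and 290.5 CPM without cytokine (-3.98 ± 0.22). Ptgs1, the constitutive cyclooxygenase, rose 3.62-fold, while the prostaglandin D synthase gene Hpgds (-1.69 ± 0.07) and the leukotriene enzyme gene Alox5 (-1.94 ± 0.15) fell. Receptors that rose were Ptger2 for prostaglandin E2 5.64-fold, Ptgir for prostacyclin 4.57-fold and Ltb4r1 for leukotriene B4 7.62-fold. Alox15, a marker of alternative activation in human monocytes, had under 0.5 CPM in every library and was not called (adjusted p = 0.1896).

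Energy and lipid genes rose by small factors but widely. Fatty acid uptake, storage and oxidation had 18 of 32 members higher and 3 lower (median 0.25), led by Ppargc1b, a coactivator of mitochondrial genes, with 14.98, 17.4 and 15.5 CPM with IL-4 against 1.91, 1.82 and 2.68 CPM without cytokine, and by the lipid chaperone gene Fabp4 (3.899-fold). Cpt1a, the entry enzyme for fatty acid oxidation, did not pass (0.09 ± 0.04, adjusted p = 0.0616). Sterol supply and efflux had 18 of 24 higher and 3 lower (median 0.40). The desaturase genes Scd1 and Scd2 rose 3.59-fold and 3.34-fold. The cholesterol exporters moved apart, with Abcg1 at 0.76 ± 0.04 and Abca1 at -0.82 ± 0.18, and the lipoprotein gene Apoe fell to 1509, 1243 and 1574 CPM with IL-4, against 4849.9, 4109 and 4389 CPM without cytokine.

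Nuclear genes of the respiratory chain were followed by complex. Complex I had 29 of 37 members higher (median log2 fold change 0.37), complex II 4 of 4 (0.43), complex III 9 of 9 (0.48), complex IV 11 of 12 (0.57) and ATP synthase 15 of 15 (0.49), with no member of any complex lower. Atp5b stood at 992, 945 and 959.6 CPM with IL-4 and 515, 525 and 514 CPM without cytokine, and Cyc1 of complex III rose 1.799-fold. Upper-quartile normalization, or leaving out replicate 1 of the cells without cytokine, called 1 complex IV gene lower. Mitochondrial ribosomal proteins rose in 31 of 76 tested members and fell in 1 (median 0.18). Cytosolic ribosomal proteins rose in 22 of 78 and fell in none (median 0.09), near the 25.1% of all genes, and this count was 10 with upper-quartile normalization and 9 without replicate 1 of the cells without cytokine.

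Genes of amino acid supply and the integrated stress response rose in 14 of 25 members and fell in 2 (median 0.68). In that response the factor ATF4 raises transporters and synthesis enzymes. The cystine transporter gene Slc7a11 had 16.2, 16.7 and 16.6 CPM with IL-4, against 2.57, 3.24 and 3.46 CPM without cytokine. The serine synthesis gene Psat1 rose 3.01-fold, the mitochondrial folate gene Mthfd2 2.82-fold and Atf4 itself 1.49-fold, while Pck2, another ATF4 target, fell (-0.98 ± 0.07). Genes of DNA replication and mitosis rose in 22 of 32 members and fell in 3 (median 0.46). Among the larger rises were genes that act at the start of DNA synthesis, with Ccne2 (cyclin E2) at 3.04-fold, Rrm2 (ribonucleotide reductase) at 2.34-fold and Pcna (the replication clamp) at 2.05-fold. Of the mitotic genes, Mki67 was 126, 159 and 160.2 CPM with IL-4 and 149.9, 121 and 132 CPM without cytokine and, like Plk1 (0.08 ± 0.11) and Aurka (0.23 ± 0.10), was not called, whereas the spindle checkpoint gene Bub1 rose (0.51 ± 0.12).

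**Figure D4:**
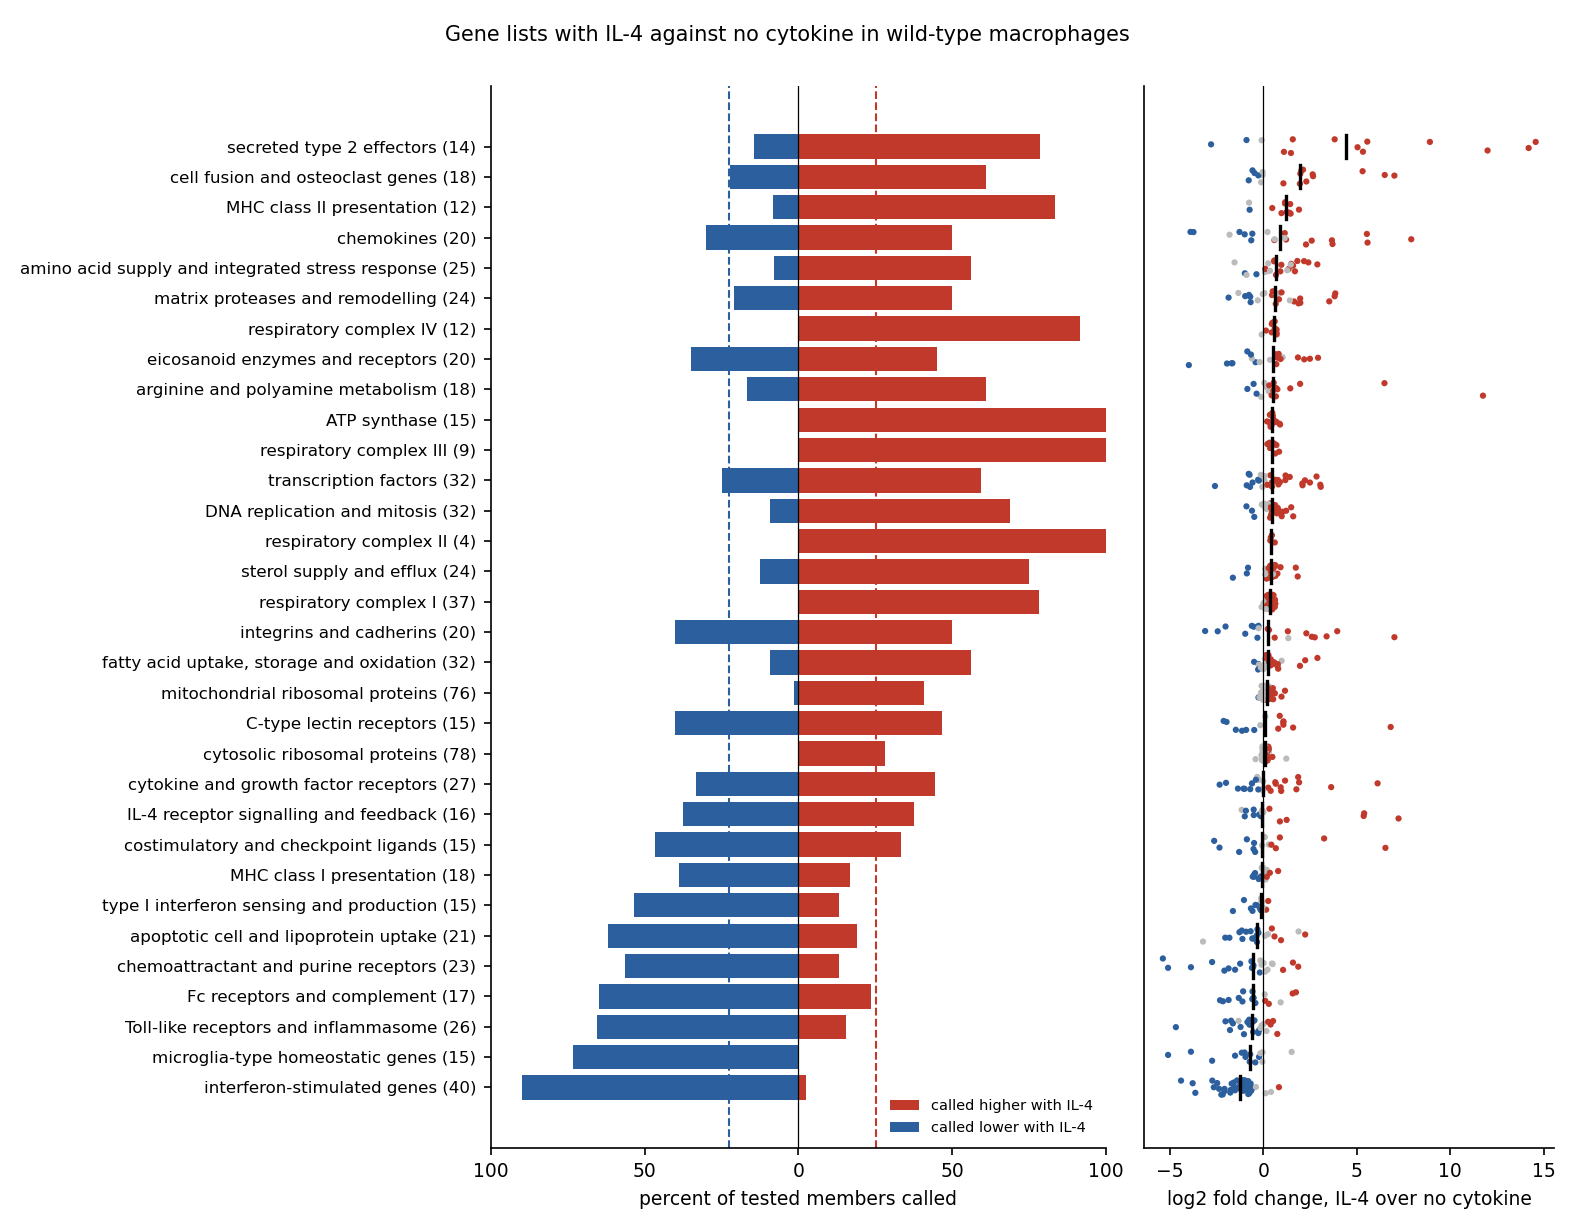
Left, the percent of tested members of each gene list called higher (red) and lower (blue) with IL-4; numbers in parentheses are tested members, and dashed lines mark the 25.1% and 22.5% of all tested genes. Right, the log2 fold change of each member (red and blue where called) with the list median as a bar; the median runs from 4.43 for secreted effectors to -1.27 for interferon-stimulated genes.

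Several of the 15 largest called falls in protein-coding genes above the same average level were receptors or surface glycan genes. They included the adhesion receptor gene Adgre4 (20.2-fold lower), Cmah, which makes the sialic acid Neu5Gc (18.1-fold lower), and the activating receptor gene Cd300e (16.4-fold lower). Fcrl1 (chromosome 3, 87376387 to 87402934), an Fc receptor-like gene known from B cells, had 1.77, 1.89 and 1.93 CPM with IL-4, against 30.8, 28.6 and 30.2 CPM without cytokine. Of the B cell markers Ighm and Cd79b fell (log2 fold changes -2.01 ± 0.13 and -1.50 ± 0.18) and the other 4 tested, Pax5 among them, were not called. Their part in the fall of Fcrl1 was not tested. Gpr162, an orphan receptor gene, had 11.6, 12.7 and 8.66 CPM with IL-4 and 147, 169 and 161 CPM without cytokine. Ly6a, which interferon induces, had 3.19, 1.355 and 0.999 CPM with IL-4 and 39.03, 20.3 and 24.3 CPM without cytokine, with replicate 1 the highest in each group. Cxcr3 (11.7-fold), Samd4 (12.5-fold) and Ndrg2 (11.3-fold) were lower too.

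The largest gain in mean CPM among called genes was in Psap and the largest loss in Lyz2. Levels between genes are compared here per length, as counts per kilobase of exon scaled to a sum of 1000000. On that scale the sphingolipid activator gene Psap stood at 27536 with IL-4 and 17490 without cytokine, and the lysozyme gene Lyz2 at 21610 with IL-4 and 48890 without cytokine, so that Psap was above Lyz2 with IL-4 and below it without cytokine. Retnla reached 3422, Rnase2a 2286 and Arg1 1719 with IL-4, against 0.128, 0.112 and 0.516 without cytokine. Cd74 stood at 5525 with IL-4 and 1541 without cytokine. By CPM, the galectin gene Lgals3 rose to 8746, 8369 and 8414 CPM with IL-4, against 4760.4, 4964 and 4710.3 CPM without cytokine, and the annexin gene Anxa1 rose 2.57-fold. Losses after Lyz2 included the selenium carrier gene Sepp1, with 965, 879 and 991 CPM with IL-4 and 4119, 4404 and 4316 CPM without cytokine, the pore-forming protein gene Mpeg1, which fell 2.14-fold, and the ferritin heavy chain gene Fth1, which fell 1.499-fold.

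Some genes had no count in any library without cytokine. Besides Chil4, the genes with the most counts in the IL-4 libraries and none without cytokine were Adipoq, the hormone adiponectin, with 7.396, 4.52 and 9.23 CPM (at least 90.03-fold higher), the potassium channel gene Kcnd3 (at least 72.1-fold), the ribonuclease gene Ang2 (at least 49.1-fold) and the retinol carrier gene Rbp4 (at least 25.4-fold). The Wnt pathway gene Axin2, further down that order, had 79 counts (at least 8.58-fold). The Rbp4 call was lost with DESeq2 (adjusted p = 0.0889). Il33, which encodes the other cytokine of the study, had 15, 22 and 9 counts with IL-4, 1, 3 and 0 with IL-33 and none without cytokine, and was too low to be tested. Gata3 (0.39 ± 0.72, adjusted p = 0.696) and Irg1, which makes itaconate (0.66 ± 0.31, adjusted p = 0.0851), were not called, and Irg1 passed in 6 of 16 alternative settings. Ucp2, a mitochondrial carrier gene, rose 1.24-fold.

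Non-coding genes contributed fewer rises. Gm42835 had 39.3, 34.3 and 41.9 CPM with IL-4, against 1.34, 1.53 and 1.403 CPM without cytokine (26.96-fold). Gm16201 rose 9.26-fold, but 28.6% of it overlaps another gene, and no strand setting is given for the counting. Of the falls, Gm13710 changed by -2.37 ± 0.21 and F630028O10Rik by -2.10 ± 0.16.

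Wild-type cells given IL-33 for 36 h allow a test of which changes differ between the 2 cytokines. IL-33 is an alarmin of the IL-1 family that signals through ST2 and MyD88, a different route from STAT6. IL-4 and IL-33 are each set against the same 3 libraries without cytokine, so those comparisons share controls. The direct test of IL-4 against IL-33 called 5772 genes (39.9%), 3000 higher with IL-4 (20.7%) and 2772 lower (19.2%). Of the 14 tested secreted effectors, 11 were also higher with IL-33 than without cytokine and none lower, where 18.5% of all genes were higher and 16.9% lower. In the direct test 8 were higher with IL-4 and 2 lower. Arg1 also rose with IL-33, to 320, 362 and 439 CPM, and was higher with IL-4 (1.83 ± 0.16). The rises of secreted effectors differed in size. Retnla was 739, 658 and 742 CPM with IL-4 and 0.952, 0.442 and 0.0844 CPM with IL-33, and Chil3 383, 375 and 436 CPM with IL-4 and 14.7, 13.4 and 14.8 CPM with IL-33. Igf1 stood at 1127 ± 38.01 CPM with IL-4 and 1093 ± 39.7 CPM with IL-33 and was not called (IL-4 over IL-33 0.04 ± 0.04, adjusted p = 0.433), nor was Mmp13 (0.15 ± 0.14, adjusted p = 0.438).

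Several gene groups differed between the cytokines. All 40 interferon-stimulated genes were called in the direct test, 39 lower with IL-4 and 1 (Usp18) higher, with a median log2 difference of -1.36. Against no cytokine, 36 were lower and 1 higher with IL-4, and 2 were lower and 3 higher with IL-33, where 16.9% of all genes were lower and 18.5% higher. Of the 20 chemokines, 14 were lower and 2 (Ccl22 and Ccl24) higher with IL-4 than with IL-33. Of 26 Toll-like receptor and inflammasome genes 18 were lower, and of 17 Fc receptor and complement genes 16 were lower, with none higher. On the other side, 12 of 15 ATP synthase genes and 22 of 32 replication genes were higher with IL-4 than with IL-33.

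The receptor genes show the contrast per library. Il4ra was 55.4, 61.5 and 51.03 CPM with IL-4, 289, 371 and 419.7 CPM with IL-33 and 81.7, 79.6 and 78.3 CPM without cytokine (IL-4 over IL-33 -2.69 ± 0.11, adjusted p = 1.8e-14). Its partner Il13ra1 had the same order of groups, with 46.7, 48.3 and 51.5 CPM under IL-33. In the reverse direction Il1rl1, the IL-33 receptor chain, had 15.8, 16.9 and 14.6 CPM with IL-33, within the range of the cells without cytokine, and the IL-4 libraries lay above both. Pparg was 139 CPM on average with IL-4, 27.5 CPM with IL-33 and 60.7 CPM without cytokine, on opposite sides of the unstimulated level. Maf was 581, 607 and 611 CPM with IL-33 (IL-33 over no cytokine 0.07 ± 0.08, adjusted p = 0.507), while the IL-4 libraries did not exceed 105 CPM. F13a1 stood at 341, 561 and 622 CPM and Clec4n at 64.8, 78.9 and 102 CPM with IL-33, the reverse of their falls with IL-4.

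For other genes the direct test did not separate the cytokines. Cmah was 0.506, 0.992 and 0.644 CPM with IL-4 and 1.06, 1.204 and 1.01 CPM with IL-33, against 14.3, 12.2 and 13.05 CPM without cytokine (IL-4 over IL-33 -0.59 ± 0.27, adjusted p = 0.0831). Tgfbr1 was 94.7, 101 and 92.2 CPM with IL-4 and 95.6, 97.3 and 101 CPM with IL-33, against 188, 189 and 198 CPM without cytokine (-0.03 ± 0.05, adjusted p = 0.6599). Cd163 (-0.03 ± 0.08), Pck2 (0.03 ± 0.07) and Csf2rb (0.14 ± 0.10) were not called either in the direct test. The feedback gene Socs2 had 17.5, 20.1 and 17.9 CPM with IL-4 and 15.99, 10.9 and 15.1 CPM with IL-33 (0.41 ± 0.20, adjusted p = 0.123), whereas Socs1 was higher with IL-4 (2.58 ± 0.17).

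**Figure D5:**
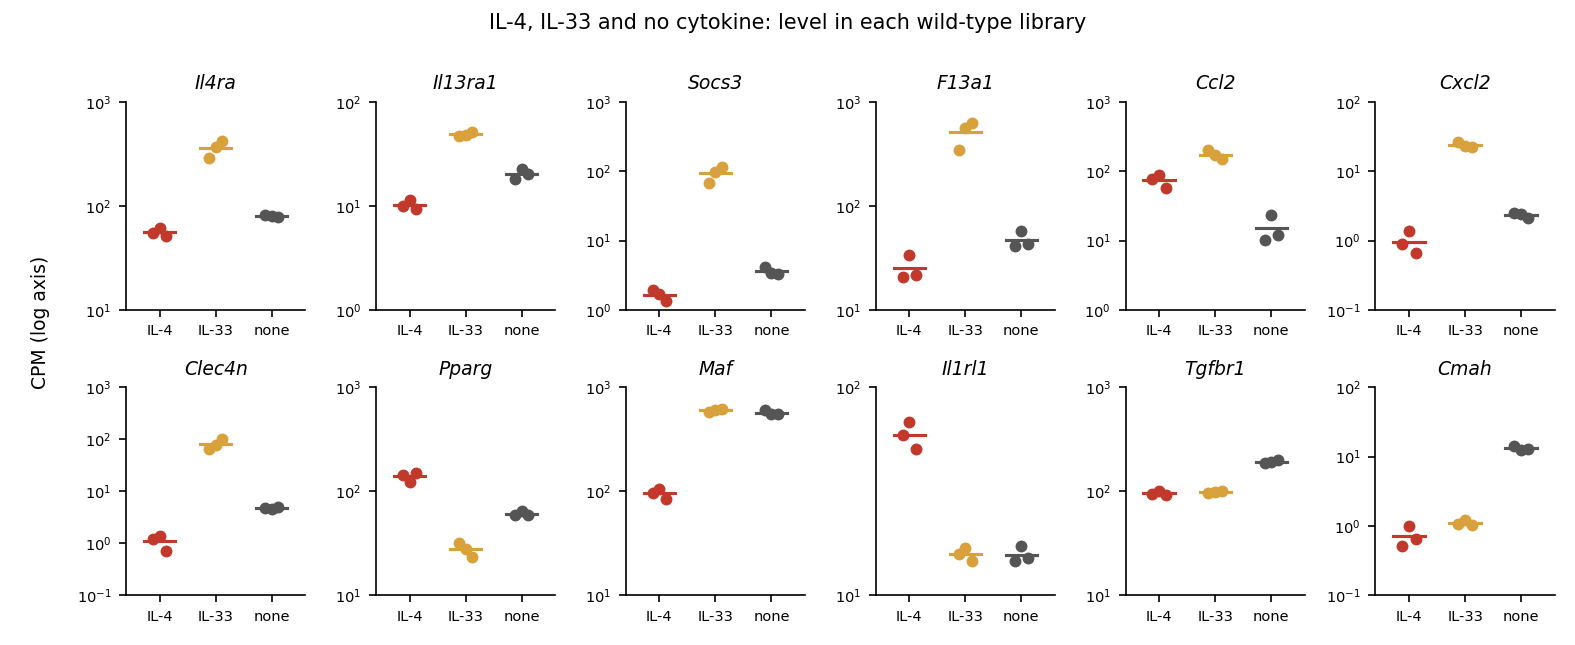
Level of 12 genes in each wild-type library with IL-4, with IL-33 and with no cytokine (none), in CPM on a log axis that differs between panels; points are libraries and lines group means. Il4ra, Il13ra1, Socs3, F13a1, Cxcl2 and Clec4n lie highest with IL-33 and lowest with IL-4, Pparg and Il1rl1 highest with IL-4, and Tgfbr1 and Cmah are lower with either cytokine than without.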

How the data were processed

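RNA was extracted with a column kit, made into libraries with the NEBNext Ultra kit and sequenced as pairs on a NovaSeq, per the labels. The authors deposited raw read counts per gene, 1 column per library, with HISAT2 2.0.5, HTSeq 0.6.1, DESeq2 1.22.2 and GRCm38 (mm10) named in the submitters' processing notes. The annotation and strand setting behind the counts are not given in the sources used here. Genes were matched to GENCODE M21 by identifier (46574 of 47069), and reads of overlapping or near-identical genes may be shared; of 878 genes checked, 64 had at least 20% of their exon words of 50 bases in another gene, and those given with values are named as uncertain.

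From these counts, edgeR 4.0.16 in R 4.3.3 filtered genes by group, scaled libraries by TMM and fitted 1 mean per group over all 21 libraries (14 residual degrees of freedom). The quasi-likelihood test was adjusted by Benjamini-Hochberg, and every adjusted p in the text comes from it unless another tool is named. Log2 fold changes are given with their SE (fold change over the root of F). The script was first tested on simulated data. The library totals of 32.6 to 48.7 M counts limit precision only for genes at a few counts. Counting intervals are exact, cover counting error only and use 95%; a count of 0 was set to a floor of 3 counts per library. The replicate libraries differed beyond sampling noise. Replicate numbers repeat between groups, but whether they pair libraries is not given in the sources used here. The main fit did not pair them.

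Genes named were the 15 largest rises and falls among well-expressed protein-coding genes (average log2 CPM of at least 2), the 10 largest gains and losses in CPM, up to 4 rises and 4 falls per list, the 5 largest non-coding rises and falls, the 10 genes with most IL-4 counts and none without cytokine, and genes of the study's own questions. Other members of the lists and marker sets that carry values were chosen after their values were seen. The members and lists were chosen with earlier results of these data known, and counts of list members are descriptions. Alternatives were other normalizations, filters, DESeq2 1.42.0, limma 3.58.1 (voom), fewer groups in the fit, a replicate block, unstimulated cells of all genotypes as controls and each replicate left out. Promoter windows came from RefSeq tables on GRCm38.p6. A few genes are counted in the lists but not reported by name here.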

Additional observations from a re-analysis of the deposited data

How the results depend on the processing

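The count of genes called between IL-4 and no cytokine was 6165 to 6517 when each replicate was left out and 6640 to 7611 under the other alternatives, against 6890. The count between IL-4 and IL-33 was 4980 to 5535 and 5428 to 5972, against 5772. Of the genes called with IL-4 over no cytokine, 87% to 99.2% were also called under each alternative. With upper-quartile normalization 46.3% of calls were rises, against 52.6%. Of 252 named genes followed over up to 16 alternatives none reversed and 10 changed their call: Retnlg, Ifnar1, Psme2 (28.3% of its exon sequence is shared, so its counts are uncertain), Erap1, Slc6a9, Fcgr3, Adam19, Irg1 and, under DESeq2, Rbp4 and Gm6116 (adjusted p = 0.0889 and 0.324).

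With the replicate number as a block, 7049 genes were called over all 21 libraries and 6819 in a fit of the 2 groups alone. Deviations of same-numbered IL-4 and unstimulated libraries correlated at 0.0171, 0.00955 and 0.0164, and the numbers were not taken to pair them. Such correlations over all genes cannot show that no pairing exists. In some genes, such as Irf7 and Stat2, the replicate numbers ranked in the same order in both groups. In others, such as Mki67, they did not. Against IL-33 the block gave 5972 and 5428.

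Of 64 list counts, 9 moved by more than 1.5 times in some setting. Rises of cytosolic ribosomal genes were 10 with upper-quartile normalization, 14 without IL-4 replicate 3, 9 without replicate 1 and 13 without replicate 3 of the unstimulated cells, against 22. The others moved by 1 or 2 genes: secreted effectors lower (1 against 2), microglia-type genes higher (1 against 0), interferon-stimulated genes higher (2 against 1), interferon sensing genes higher (1 against 2), MHC class I genes higher (1 against 3), complex IV (1 against 0) and cytosolic ribosomal genes lower (1 against 0), and mitochondrial ribosomal genes lower (2 or 3 against 1). The cause was not tested.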

Other observations

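Some genes outside the lists, chosen after their values were seen, handle iron. Tfrc, the transferrin receptor that brings iron into cells, had 411, 405 and 407 CPM with IL-4, 80.9, 98.7 and 105 CPM with IL-33 and 22.6, 24.4 and 25.7 CPM without cytokine (IL-4 over no cytokine 16.8-fold). Slc40a1, the iron exporter ferroportin, had 12.5, 15.1 and 10.9 CPM with IL-4, 51.4, 43.2 and 37.7 CPM with IL-33 and 123, 139 and 126 CPM without cytokine (IL-4 over no cytokine -3.34 ± 0.12 log2 units). Libraries with IL-4 and without cytokine did not overlap in either gene, as in 56.1% of all tested genes. Fth1, the ferritin heavy chain that stores iron, fell (-0.58 ± 0.04), while the light chain gene Ftl1, which overlaps another gene, did not pass (0.03 ± 0.04, adjusted p = 0.615). Aco1, the iron regulatory protein gene, rose 1.64-fold and Cp, the ferroxidase ceruloplasmin, had 0.284, 0.508 and 0.244 CPM with IL-4, 31.9, 42.1 and 46.5 CPM with IL-33 and 3.33, 2.802 and 2.004 CPM without cytokine.

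Some genes that start blood clotting, also chosen after their values were seen, rose with IL-4. F7 (factor VII) had 118, 121 and 118 CPM with IL-4, against 9.73, 10.04 and 10.5 CPM without cytokine (11.8-fold), F10 (factor X) had 504, 539.5 and 484 CPM with IL-4, against 22.6, 38.5 and 32.7 CPM without cytokine (16.3-fold), and F3 (tissue factor) had 9.17, 10.7 and 8.01 CPM with IL-4, against 0.957, 1.97 and 0.551 CPM without cytokine. Libraries of the 2 groups did not overlap in these genes, as in 56.1% of all tested genes. F5 (factor V) and the inhibitor gene Tfpi were not called (adjusted p = 0.0801 and 0.0705). The rise of F10 was not particular to IL-4. With IL-33 it had 193, 213 and 272 CPM, 7.23-fold over no cytokine, and in the direct test it was 2.25-fold higher with IL-4.

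Rps27a, which encodes a ubiquitin fusion with a ribosomal protein, had 164, 571 and 569 CPM in the 3 IL-4 libraries, 179.9, 186 and 647 CPM in the 3 IL-33 libraries and 189, 186 and 181 CPM in the 3 without cytokine, so 1 IL-4 library and 2 IL-33 libraries lay at the unstimulated level. It was not called (adjusted p = 0.0848). Of its exon words of 50 bases, 18.3% are also in another gene, and the part of shared reads in this split was not tested.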
